A study of Mus musculus with 36 samples.

Results

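The gastrocnemius transcriptome of mice that ran 50% of an unrestricted daily distance on a high-fat diet (HFD-50%) was compared with that of sedentary mice on the same diet (HFD-C). The members were chosen by the treatment label, which gave 6 HFD-50% and 6 HFD-C libraries, 12 of the 36 in the series. All 12 came from male wild-type (WT) C57BL/6 mice that were 3 to 4 weeks old at the start and were fed for 12 weeks a diet that supplied 45% of energy as fat, so the diet was shared by runners and controls. The HFD-50% mice had an in-cage wheel with programmable brakes and averaged 4.2 km/day, 50% of the 8.3 km/day of unrestricted runners (HFD-U). Other groups ran 2.1 km/day (HFD-25%) or 6.3 km/day (HFD-75%). The brakes were released at lights off and applied once the assigned distance was reached. Running was voluntary, and the time of day of tissue collection was not given in the sources used here. One library was made per mouse from poly(A) RNA of whole gastrocnemius, so that p-values measure the spread between mice.

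Skeletal muscle that contracts repeatedly switches between carbohydrate and fat as fuel, and fatty acids entering the fibre act as ligands of the PPAR nuclear receptors, which induce genes of fat storage and oxidation. FOXO transcription factors, which insulin signalling through PI3 kinase holds out of the nucleus, and the glucocorticoid receptor induce genes for protein breakdown and glucose sparing during fasting. Calcium released at each contraction acts through calmodulin, calcineurin and NFAT on fibre-type genes, and muscle has its own circadian clock, in which the activator BMAL1 (gene Arntl) is opposed by REV-ERB and DEC repressors. Endothelial cells, fibroblasts, tendon, nerve and fat are part of the tissue sampled.

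The libraries held between 14025701 and 17179350 reads counted on genes in HFD-50% and between 15545094 and 27981702 in HFD-C (exact permutation test, two-sided, p = 0.0303, 0.108 after Benjamini-Hochberg adjustment over 4 measures). Features linked to ribosomal RNA took 0.559 to 1.02% of reads in HFD-50%, but 2.12 to 3.54% in HFD-C mice 1 to 4 and 0.551 and 0.626% in HFD-C mice 5 and 6 (exact permutation test over all 12 mice, p = 0.0541, adjusted 0.108). All 6 sedentary mice of the other diet (NFD-C) also lay at 2.01 to 3.80%, and no library of a running group exceeded 1.02%. Mouse 4 of HFD-50% stood apart from the other 5 in 1010 of 12116 genes tested (8.34%), against 30 to 273 genes for each other mouse by the same criterion, a gap to the nearest mouse above Dixon's critical value. Results are therefore also given without HFD-50% mouse 4 and in the low-share libraries alone (all 6 HFD-50% mice against HFD-C mice 5 and 6). Markers of skeletal muscle fibres dominated both groups, with 140509 to 178378 CPM (counts scaled to a common library size) summed over 12 markers in HFD-50% and 126925 to 206025 in HFD-C. None of the 11 tested differed at an unadjusted threshold of 0.05 by edgeR, or after adjustment by DESeq2. The twelfth, Mylpf, a fast myosin light chain, was counted at only 0.320 to 1.18 and 0.183 to 0.487 CPM, and the reason was not tested. Fast myosin Myh4 lay at 31558, 42767 and 59823 CPM (lowest, median and highest mouse) in HFD-50% and at 30872, 45579.6 and 61168 in HFD-C.

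**Figure D1:**
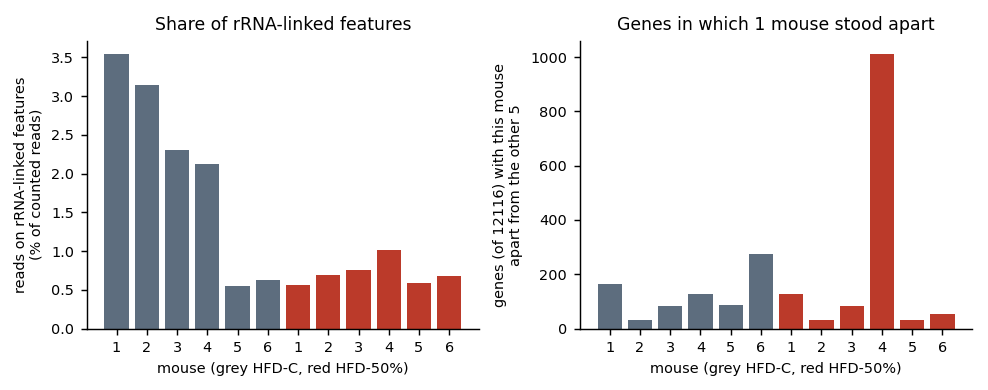
Left, reads on rRNA-linked features as a percentage of counted reads in each HFD-C (grey) and HFD-50% (red) mouse. Right, the number of the 12116 genes in which that mouse stood apart from the other 5 of its group. HFD-C mice 1 to 4 lie at 2.12 to 3.54% and all others at 0.551 to 1.02%, and HFD-50% mouse 4 stands apart in 1010 genes.

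Many genes differed between the groups at the unadjusted threshold. Of 12116 genes whose counts averaged 25 or more, 1296 passed an unadjusted p of 0.05 against the HFD-C (10.7%), 703 of them higher (5.8%) and 593 lower (4.89%). This unadjusted threshold, which the study also used and which is meant by "called", is what "rose" and "fell" refer to in the results that follow. By edgeR's quasi-likelihood test no gene passed Benjamini-Hochberg adjustment (smallest adjusted p 0.108), whereas DESeq2 on the same genes gave 160 with an adjusted p of at most 0.05 (1.32%), 80 of them changed at least 2-fold. In 44 genes every HFD-50% mouse was above every HFD-C mouse (0.363%) and in 52 every one was below (0.429%). The median log2 fold change over all genes was 0.01. Counts of list members are read against these percentages, and adjusted p-values are those of edgeR unless DESeq2 is named. Of the 703 genes that rose, 462 also did so without HFD-50% mouse 4 and 260 in the low-share libraries. Of the 593 that fell, 447 and 185 did so.

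Genes that rose with the smallest p were of varied function and included oxidative enzymes, transporters and a lipid droplet protein. Xdh (chr17:74190890-74257369 on GRCm39), xanthine dehydrogenase, an enzyme of purine breakdown, was measured at 74.6, 100.2 and 136 CPM in the HFD-50% and 30.8, 38.4 and 77.4 CPM in the HFD-C. All but 1 HFD-50% mouse were above the highest HFD-C mouse (log2 fold change 1.21, SE 0.23, adjusted p = 0.108, DESeq2 adjusted p = 0.000703). Its log2 fold change was 1.61 in the low-share libraries and 1.25 without HFD-50% mouse 4. Phyhd1 (chr2:30156215-30172161), a relative of the peroxisomal phytanoyl-CoA hydroxylase, ranged over 32.9, 51.5 and 54.8 CPM in runners and 16.4, 18.8 and 35.2 CPM in sedentary mice. It had the smallest p of the genes that rose (log2 fold change 1.08, SE 0.20, adjusted p = 0.108), with 5 of 6 runners above every control. Plin4, a perilipin that coats lipid droplets, separated the groups fully, at 726, 790.5 and 1259 CPM against 374, 505 and 577 CPM (log2 fold change 0.84, SE 0.17, adjusted p = 0.111). Its highest value came from mouse 4, and without it the log2 fold change was 0.71.

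Map3k15 (chrX:158771200-158906342), a stress-activated kinase of the ASK family, was expressed at low levels but separated the groups, with 1.82, 3.98 and 7.70 CPM in the HFD-50% and 0.670, 1.17 and 1.63 CPM in the HFD-C (log2 fold change 1.81, SE 0.36, adjusted p = 0.11). Slc43a3, a purine base transporter, was likewise higher in every runner, at 45.9, 62.2 and 75.9 against 28.02, 38.4 and 44.5 CPM (log2 fold change 0.76, SE 0.15, adjusted p = 0.108). The mRNA-decay factor Zfp36l1 lay at 26.8, 31.6 and 32.3 CPM in runners and 14.1, 19.2 and 25.1 CPM in controls (log2 fold change 0.68, SE 0.13, adjusted p = 0.108). These 3 genes had no overlap between groups, and their log2 fold changes without HFD-50% mouse 4 were 1.96, 0.78 and 0.66. Slc7a2, an arginine and lysine transporter, was at 101, 256 and 418 CPM against 51.5, 88.3 and 129 CPM (log2 fold change 1.45, SE 0.29, adjusted p = 0.11), with 5 of 6 runners above all controls. Socs2, a feedback inhibitor of growth hormone signalling, Acap2, a GTPase-activating protein for ARF6, and Cyren, a regulator of DNA end joining, also separated the groups, with log2 fold changes of 0.97 (SE 0.20), 0.64 (SE 0.13) and 1.51 (SE 0.32). Sh3d21 rose from a median of 0.773 to 2.43 CPM (log2 fold change 1.49, SE 0.32, adjusted p = 0.111). It was close to the count minimum and was tested in only 7 of the 12 fits that left out 1 mouse, all of which it passed.

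**Figure D2:**
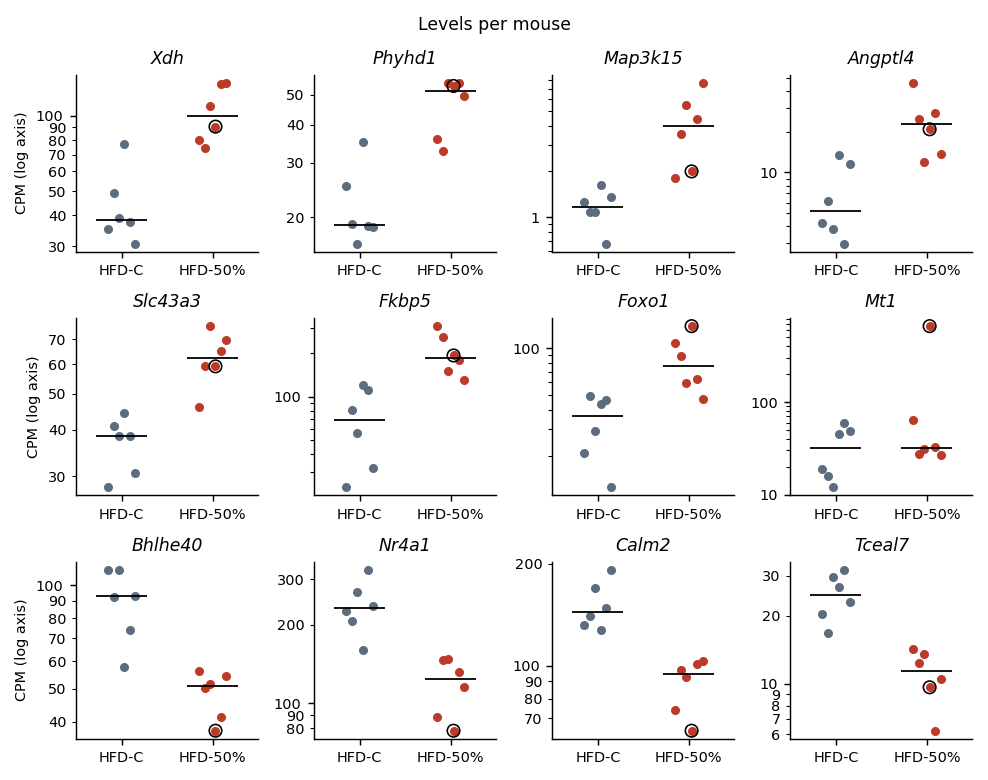
CPM (log axis) of 12 genes in each of 6 HFD-C (grey) and 6 HFD-50% (red) mice. Lines mark medians and a circle marks HFD-50% mouse 4. Mt1 is high in that mouse alone (663 CPM), whereas Map3k15, Slc43a3, Fkbp5, Bhlhe40, Nr4a1, Calm2 and Tceal7 do not overlap between groups.

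The study singled out 12 genes on these samples, so neither their direction nor their part in the list counts below is independent evidence. Of these, 11 rose and 1, Lars2, fell over all mice, but its log2 fold change of -2.81 turned to 0.48 (not called) in the low-share libraries. Besides Xdh and Phyhd1 they include Fkbp5 (chr17:28617727-28705123), a co-chaperone of the glucocorticoid receptor and among its most responsive targets, at 131, 187 and 309.5 CPM in HFD-50% and 23.5, 68.7 and 121 CPM in HFD-C. Every runner was above every control (log2 fold change 1.52, SE 0.36, adjusted p = 0.134). Foxo1 (chr3:52175758-52257530), the FOXO factor of fasting, lay at 46.8, 76.2 and 139 CPM against 12.6, 36.1 and 48.8 CPM (log2 fold change 1.33, SE 0.32, adjusted p = 0.139), and 5 of 6 runners exceeded all controls. Pik3r1, the p85 regulatory subunit of PI3 kinase, was at 44.2, 72.3 and 121 CPM and 23.4, 29.4 and 47.2 CPM (log2 fold change 1.19, SE 0.25, adjusted p = 0.111). Klf10, a zinc-finger repressor, was at 20.8, 42.96 and 57.9 CPM against 13.9, 19.1 and 27.5 CPM (log2 fold change 1.02, SE 0.26, adjusted p = 0.163), with 4 runners above the highest control. For Aldh1l1, a folate-linked dehydrogenase, Aldh9a1, which makes the carnitine precursor butyrobetaine, and Car4, a membrane carbonic anhydrase, medians rose from 3.58 to 8.91, from 10.8 to 37.4 and from 3.71 to 17.4 CPM. Their log2 fold changes were 1.07 (SE 0.25), 1.42 (SE 0.35) and 1.70 (SE 0.38), and in each the ranges of the groups overlapped. Fibin, a secreted factor, was at 17.1, 29.3 and 73.9 CPM against 3.55, 9.71 and 18.4 CPM (log2 fold change 1.68, SE 0.37, adjusted p = 0.121, log2 fold change 1.32 without mouse 4). Sesn1, a stress-induced inhibitor of mTORC1, separated the groups at 31.01, 41.6 and 202 CPM against 16.1, 22.4 and 26.9 CPM. Its log2 fold change of 1.70 (SE 0.40, adjusted p = 0.139) was 1.03 without HFD-50% mouse 4, which held the highest value. By quantitative PCR of the same RNA the study reported Aldh1l1, Xdh, Car4, Aldh9a1, Pik3r1, Fkbp5 and Foxo1 higher in HFD-50% than in HFD-C. It reported no significant difference for Fibin, Sesn1 and Phyhd1, and Klf10 higher only than in HFD-U.

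Genes induced by glucocorticoids rose more often than the background of 5.8%, and their typical change was smaller without 1 mouse. Of 27 members tested, 13 rose and 2 fell, and the median log2 fold change was 0.58. Those that rose include Fkbp5, Pik3r1 and Xdh, which the study singled out on these samples. Without HFD-50% mouse 4, 9 rose and 2 fell, and the median was 0.14. Slc39a14, a zinc and iron importer, was at 19.9, 29.2 and 192 CPM against 9.08, 12.99 and 15.9 CPM. No mice overlapped, but the log2 fold change of 2.15 (SE 0.48) was 1.24 without mouse 4. The metallothioneins Mt1 and Mt2, zinc-binding proteins, were at 663 and 357 CPM in that mouse, while HFD-50% medians (32.1 and 12.6 CPM) lay near those of the HFD-C (32.2 and 15.7 CPM). Their log2 fold changes of 2.09 and 2.02 became 0.14 and -0.17 without it, and the call of Mt2 was also lost without other mice, in all without HFD-50% mouse 4 or HFD-C mouse 1, 2, 3, 4 or 6 (log2 fold changes between -0.17 and 2.05). Glul, glutamine synthetase, was called with and without it, at 541, 853 and 1317 CPM against 322, 568 and 590.4 CPM (log2 fold change 0.83, SE 0.24, adjusted p = 0.213, and 0.68 without mouse 4). The remaining members that rose, Klf15, Cdkn1a, Zbtb16 and Sult1a1, are named after their values were seen. Klf15, a transcription factor of amino acid breakdown, had a log2 fold change of 0.57 and lost its call without HFD-50% mouse 4 or HFD-C mouse 3 (log2 fold changes between 0.28 and 0.51). Cdkn1a, the cell cycle inhibitor p21, had one of 1.48 and lost its call without HFD-50% mouse 4 (log2 fold change 0.67). Zbtb16, the zinc-finger protein PLZF, and the sulfotransferase Sult1a1 had log2 fold changes of 0.68 (SE 0.26) and 0.80 (SE 0.26). The members that fell were Dusp1 and Per1, described with their families.

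FOXO targets and ubiquitin ligases of muscle atrophy were called at a higher rate than all genes, with 10 of 23 higher and 2 lower (median log2 fold change 0.29). Without HFD-50% mouse 4 the counts were 6 and 1 (median 0.12). Foxo1 and Sesn1, which rose, are among the genes that the study singled out. The members that fell, named after their values were seen, were Foxo6 (log2 fold change -1.12) and Sesn3 (-1.27), the latter opposite in direction to Sesn1. The call of Foxo6 was lost without HFD-C mouse 6 (-0.93). That of Sesn3 was lost without HFD-50% mouse 3, 4 or 5 or HFD-C mouse 2 (log2 fold changes between -1.15 and -1.09). Cblb, a ligase that degrades IRS1, separated the groups at 20.4, 24.1 and 38.7 CPM against 9.63, 14.6 and 18.8 CPM (log2 fold change 0.90, SE 0.19, adjusted p = 0.111). Txnip, which limits glucose uptake, was at 589, 669.8 and 810.5 CPM against 358, 467 and 599 CPM (log2 fold change 0.50, SE 0.15, adjusted p = 0.23). The 2 best-known ligases, Trim63 (MuRF1) and Fbxo32 (atrogin-1), which are named here after their values were seen, varied widely between runners. Trim63 spanned 313, 651 and 2173 CPM in HFD-50% and 288, 411 and 480.1 CPM in HFD-C. Fbxo32 spanned 377, 661 and 2029.6 CPM in runners and 422, 469.6 and 550.3 CPM in controls. Mouse 4 was highest in both, at 2173 and 2029.6 CPM, and 3 HFD-50% mice were below every control for Fbxo32. Without mouse 4 the log2 fold change of Trim63 went from 1.13 to 0.61 (called) and that of Fbxo32 from 0.89 to 0.47 (not called). The call of Fbxo32 was lost without HFD-50% mouse 1 or 4 (log2 fold changes between 0.47 and 0.78). Autophagy and mitophagy genes were called below the background, with 1 of 33 higher and none lower by edgeR (background 10.7% in either direction, and none by DESeq2's adjusted p). That gene, the FOXO target Depp1, was at 386 CPM in mouse 4 and at 13.2 to 28.2 CPM in the other 5, beside 11.9 to 40.2 CPM in HFD-C. Its log2 fold change of 1.79 was -0.22 without that mouse, and its call was lost without HFD-50% mouse 4 or HFD-C mouse 1, 2, 3 or 6 (log2 fold changes between -0.22 and 1.74).

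Genes of fat use rose more often than the background, with and without mouse 4. Of 42 genes of fatty acid uptake and oxidation 11 rose and none fell (background 5.8% and 4.89%), with a median log2 fold change of 0.27 and of 0.30 without mouse 4. Those 11 include Phyhd1, which the study singled out. In PPAR signalling 11 of 52 rose and 1 fell (median 0.20). The lipases of the lipid droplet, Pnpla2 (adipose triglyceride lipase) and Lipe (hormone-sensitive lipase), were at 237, 374 and 529.9 and 20.6, 33.1 and 35.6 CPM in HFD-50%. In HFD-C they were at 149.5, 222 and 296 and 15.8, 18.6 and 26.3 CPM, and 5 runners exceeded all controls in each (log2 fold changes 0.75, SE 0.19, and 0.65, SE 0.17). Acot1, a cytosolic acyl-CoA thioesterase with close copies that could share its reads, rose from a median of 2.19 to 5.64 CPM (log2 fold change 2.004, SE 0.51, adjusted p = 0.163). Adipocyte markers, which include fat-droplet genes, had 1 of 8 higher (Cidea), and the log2 fold change was positive in 4 of 8. It was -1.48 for Lep, -0.92 for Adipoq and -0.64 for Cidec, none of them called. Summed levels were 1287 to 3455 CPM in HFD-50% and 1779.9 to 2576 CPM in HFD-C. Most of each sum was Car3, at 1093 to 3147 and 1453 to 2415 CPM. The defining Plin1 was at 0 in 2 HFD-50% mice and 1 HFD-C mouse, and the most abundant, Car3 and Fabp4, are also expressed in muscle and capillaries and were not called (-0.33, adjusted p = 0.676, and 0.38, adjusted p = 0.697). The mitochondrial carrier Ucp3, named after its values were seen, was at 330.4, 483 and 576 against 174, 280.4 and 392 CPM (log2 fold change 0.66, SE 0.20, adjusted p = 0.253).

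Angptl4 (chr17:33993874-34000549), a secreted inhibitor of lipoprotein lipase and a target of both PPARs and the glucocorticoid receptor, was at 12.01, 22.8 and 46.1 CPM in the HFD-50% and 2.98, 5.18 and 13.5 CPM in the HFD-C. All runners but 1 were above the highest control (log2 fold change 1.79, SE 0.39, adjusted p = 0.121, DESeq2 adjusted p = 0.00171). Nr1h3, the oxysterol receptor LXR alpha, separated the groups at 16.1, 17.5 and 24.9 against 11.2, 13.4 and 15.5 CPM (log2 fold change 0.51, SE 0.14, adjusted p = 0.207). Pdk4, which blocks pyruvate entry into the citric acid cycle, had a wide range, at 874, 2018 and 3454 CPM against 625, 1068 and 1864 CPM (log2 fold change 0.86, SE 0.35, adjusted p = 0.392), and its call was lost without HFD-50% mouse 1 or 4 or HFD-C mouse 3 or 5 (log2 fold changes between 0.66 and 0.79). In glycerolipid and glycerophospholipid metabolism 8 of 48 rose and 2 fell (background 5.8% and 4.89%). Among them were Pld1, phospholipase D1 (log2 fold change 0.81, SE 0.17), Pcyt2, of phosphatidylethanolamine synthesis (0.54, SE 0.15), Lpcat3, which loads polyunsaturated acyl chains (0.38, SE 0.13), and the phosphatidate phosphatase Lpin2 (0.81, SE 0.30, and 0.47, not called, without mouse 4). No gene of fatty acid synthesis was called among 17 by edgeR or by DESeq2's adjusted p, the most abundant being Acacb, a muscle acetyl-CoA carboxylase (log2 fold change 0.20, adjusted p = 0.687), and Me1, malic enzyme (-0.23, adjusted p = 0.681). Cholesterol synthesis and uptake had 8 higher and 2 lower of 36, with a median of 0.01. They included squalene synthase Fdft1 (log2 fold change 0.46, SE 0.14, adjusted p = 0.245) and Mylip, a ligase for the LDL receptor (log2 fold change 0.57, SE 0.18, adjusted p = 0.278).

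Members of the tryptophan and lysine degradation list were also called higher more often than all genes. In tryptophan and lysine degradation 10 of 36 rose and 1 fell, beside 5.8% and 4.89% of all genes. Plod2, a lysyl hydroxylase of collagen, Inmt, an indolethylamine methyltransferase, and Aox1, aldehyde oxidase, had medians of 5.18, 39.8 and 90.1 CPM in HFD-50% and 2.62, 21.1 and 50.2 CPM in HFD-C. Their log2 fold changes were 0.99 (SE 0.28), 0.95 (SE 0.27) and 0.70 (SE 0.20), and 4 or 5 of 6 runners were above every control. The list is wider than breakdown enzymes, since Plod2 acts on collagen and is also counted among the matrix genes. Of 13 aldehyde dehydrogenases 3 rose and 2 fell. Aldh1l1 and Aldh9a1, which rose, are among the genes that the study singled out. The mitochondrial Aldh2 was at 85.3, 119 and 141 CPM against 53.6, 88.8 and 96.8 CPM (log2 fold change 0.55, SE 0.17, adjusted p = 0.269), whereas Aldh18a1, of proline synthesis, was at 1.06, 1.33 and 2.31 CPM against 2.15, 2.57 and 3.06 CPM (log2 fold change -0.75, SE 0.26, adjusted p = 0.318). In branched-chain amino acid degradation 3 of 27 rose and none fell (background 10.7%). These were the 3 genes of the branched-chain ketoacid dehydrogenase core, Bckdha (log2 fold change 0.41, SE 0.15, adjusted p = 0.366), Bckdhb and Dbt. The call of Bckdhb (log2 fold change 0.61) was lost without HFD-50% mouse 4 or HFD-C mouse 1, 2 or 3 (log2 fold changes between 0.34 and 0.55), and that of Dbt (0.37) without HFD-50% mouse 1, 2, 4 or 5 or HFD-C mouse 2, 3, 4 or 5 (log2 fold changes between 0.29 and 0.38). In nitrogen metabolism, which holds the carbonic anhydrases that hydrate carbon dioxide, 4 of 9 rose. Beside Car4, which the study singled out, and Glul, these were Car14 (0.62, SE 0.26) and Car2 (0.69, SE 0.30). The call of Car14 was lost without HFD-50% mouse 1, 2 or 5 or HFD-C mouse 1, 2, 3 or 6 (log2 fold changes between 0.45 and 0.61), and that of Car2 without HFD-50% mouse 3, 5 or 6 or HFD-C mouse 2, 3, 4, 5 or 6 (log2 fold changes between 0.51 and 0.69).

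Endothelial genes were called higher more often than all genes. Of 29 endothelial and angiogenic genes 12 rose and none fell by edgeR (background 5.8% and 4.89%, with 2 at DESeq2's adjusted p), with a median log2 fold change of 0.38, and 15 rose without mouse 4. Cldn5, a tight-junction protein of capillaries, was at 6.36, 13.5 and 17.3 CPM against 3.34, 5.86 and 9.36 CPM (log2 fold change 1.09, SE 0.26, adjusted p = 0.134). Sox18, a transcription factor of vessel formation, was at 10.5, 14.1 and 21.8 against 4.28, 7.34 and 12.7 CPM (log2 fold change 1.002, SE 0.27, adjusted p = 0.181), and Flt1, a VEGF receptor, at 67.3, 84.2 and 122 against 34.8, 54.8 and 80.8 CPM (log2 fold change 0.70, SE 0.20, adjusted p = 0.23). In Cldn5 and Sox18 all runners but 1 exceeded every control. Plvap, which forms diaphragms of capillary openings, rose from a median of 8.93 to 14.6 CPM (log2 fold change 0.70, SE 0.20, adjusted p = 0.207). General markers of the cell type had 4 of 9 higher, all 9 with a positive log2 fold change and a median of 0.43. All 9 are also members of the list above, so they are not a separate set of genes. Their summed level was 208 to 466 CPM in HFD-50% and 183 to 324 CPM in HFD-C, and none was at 0 in any mouse. Their part in the result was not tested. The 2 most abundant, Cdh5 and Pecam1, had log2 fold changes of 0.43 (adjusted p = 0.511) and 0.29 (adjusted p = 0.599). In whole muscle, more cells of a type and more RNA per cell cannot be told apart. Smooth muscle and pericyte markers had 1 of 7 higher, with Rgs5 and Acta2 at log2 fold changes of 0.25 (adjusted p = 0.696) and 0.20 (adjusted p = 0.841).

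**Figure D3:**
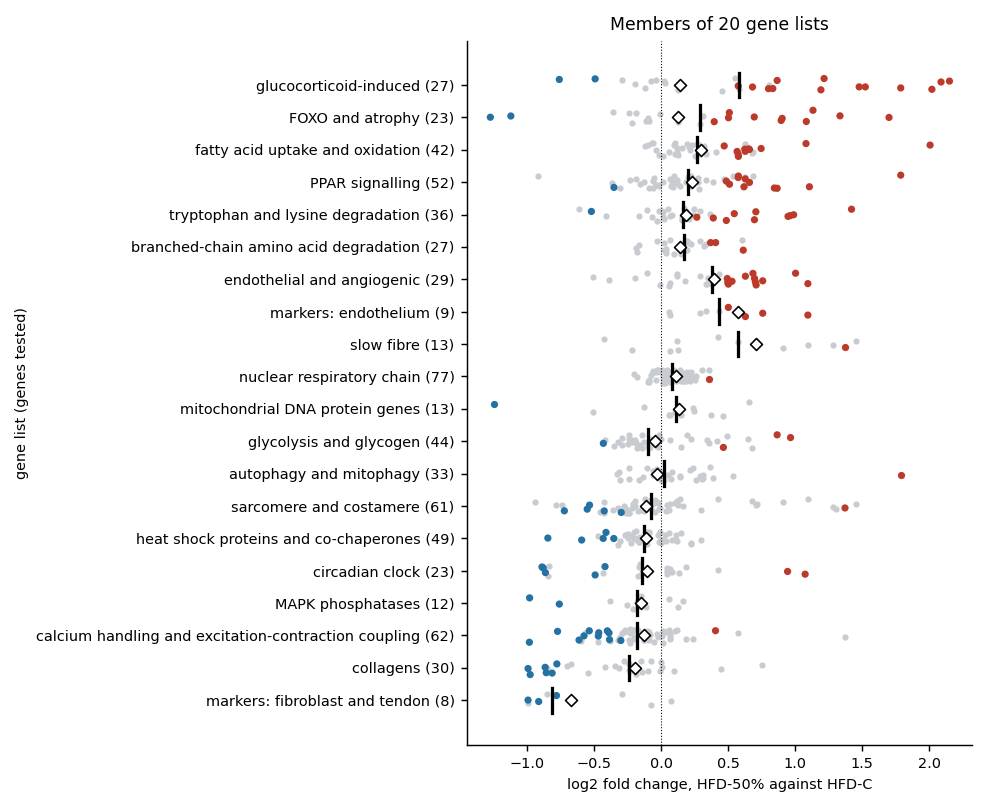
Log2 fold change of each tested member of 20 gene lists, HFD-50% against HFD-C, red where it rose and blue where it fell at an unadjusted p of at most 0.05. Bars mark the list median and diamonds the median without HFD-50% mouse 4. The bar and diamond of the glucocorticoid list lie apart (0.58 and 0.14), whereas those of fatty acid oxidation (0.27 and 0.30) and endothelial genes (0.38 and 0.39) lie together.

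Some circadian clock genes were called, in both directions. Of 23 clock genes 5 fell and 2 rose, beside 4.89% and 5.8% of all genes. The DEC repressor Bhlhe40 (chr6:108637590-108643886) was at 37.7, 50.96 and 56.2 CPM in the HFD-50% and 57.7, 92.8 and 111 CPM in the HFD-C, with every runner below every control (log2 fold change -0.89, SE 0.17, adjusted p = 0.108). Its relative Bhlhe41 was at 10.8, 40.4 and 44.4 against 37.5, 64.1 and 95.6 CPM (log2 fold change -0.88, SE 0.28, adjusted p = 0.271, and -0.69 without mouse 4, which was lowest). Nr1d1, the REV-ERB alpha repressor, was at 16.7, 20.8 and 37.3 against 25.9, 42.5 and 69.4 CPM (log2 fold change -0.86, SE 0.24, adjusted p = 0.2), with 4 of 6 runners below all controls. Nfil3, a repressor that REV-ERB alpha itself represses, moved the other way, at 33.4, 58.4 and 105 CPM against 19.3, 31.4 and 46.97 CPM (log2 fold change 0.94, SE 0.29, adjusted p = 0.256). Arntl, Per1 and Usp2 are named after their values were seen. Arntl was at 5.62, 14.8 and 37.4 against 4.87, 8.24 and 11.2 CPM (log2 fold change 1.07, adjusted p = 0.37), and without HFD-50% mouse 4 its value was 0.71 (not called). The period repressor Per1, at 57.5, 79.2 and 121 against 85.9, 104 and 165 CPM, had a log2 fold change of -0.49 and lost its call without HFD-50% mouse 1, 2 or 5 or HFD-C mouse 3 or 5 (log2 fold changes between -0.46 and -0.38). The deubiquitinase Usp2 fell by the same criterion (-0.42) and lost its call without HFD-50% mouse 3, 4, 5 or 6 or HFD-C mouse 1, 2 or 3 (log2 fold changes between -0.45 and -0.30).

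Clock proteins act through short promoter elements, and 3 clock genes that changed carry one in the 250 bases before the gene start. CLOCK and BMAL1 bind the E-box CACGTG, and REV-ERB and ROR factors bind TAGGTCA. Searched on both strands, the E-box was found in 6.02% and TAGGTCA in 2.23% of 32851 RefSeq mouse promoters (GRCm38.p6), and none of the motifs contains another. Of the 7 clock genes that changed, 6 have an entry, and Bhlhe40 has none. The sequences are 100 bases long and end between 0 and 113 bases before the gene start, read 5′ to 3′ on the gene's strand, with the matched letters in capitals (TGACCTA is TAGGTCA on the opposite strand). The fourth sequence, of the phosphatase gene Dusp1, which is described next, holds the cAMP response element TGACGTCA bound by CREB, present in 1.55% of promoters, and also an E-box that is left in lower case.
Per1 (chr11:69098736-69098835, plus strand): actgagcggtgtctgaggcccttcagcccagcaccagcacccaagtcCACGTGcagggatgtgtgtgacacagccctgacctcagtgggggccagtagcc
Bhlhe41 (chr6:145865521-145865620, minus strand): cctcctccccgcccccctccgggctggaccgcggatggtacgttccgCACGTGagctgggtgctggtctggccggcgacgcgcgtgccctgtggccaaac
Nfil3 (chr13:52981040-52981139, minus strand): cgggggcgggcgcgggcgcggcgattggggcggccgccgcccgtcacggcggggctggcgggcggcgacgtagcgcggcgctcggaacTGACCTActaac
Dusp1 (chr17:26508562-26508661, minus strand): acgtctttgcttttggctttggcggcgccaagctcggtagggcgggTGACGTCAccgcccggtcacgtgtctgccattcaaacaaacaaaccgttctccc
The promoters of Nr1d1, Arntl and Usp2 in that table held neither clock element within these 250 bases. A match describes letters and not a bound site.

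Genes that respond within minutes to contraction or stress were called over all 12 mice at a rate near that of all genes. The orphan nuclear receptor Nr4a1, which contraction induces, was at 78.4, 124 and 148 CPM in the HFD-50% and 160.5, 232 and 326 CPM in the HFD-C. Every runner was below every control (log2 fold change -1.01, SE 0.20, adjusted p = 0.108). Over the list of immediate early genes, 2 of 32 rose (Klf10 and Zfp36l1) and 1 fell (Nr4a1), 9.38% beside 10.7% of all genes. When mouse 4 was left out 2 rose and 9 fell, where 611 and 580 of 12100 genes did. Of 12 MAPK phosphatases 2 fell and none rose (16.67% called, beside 10.7% of all genes). Dusp10, which acts on p38 and JNK, was at 12.4, 22.7 and 23.7 CPM against 18.4, 45.1 and 56.3 CPM (log2 fold change -0.98, SE 0.24, adjusted p = 0.148), and Dusp1 at 52.7, 71.7 and 109 against 82.3, 118 and 204 CPM (log2 fold change -0.76, SE 0.22, adjusted p = 0.213). Both groups overlapped in each gene. Among MAPK kinases and partners 3 of 60 rose and 2 fell, a rate below the background of 10.7%. Beside Map3k15 these include Gadd45a, a growth-arrest protein that activates p38 (log2 fold change 0.69, SE 0.26, adjusted p = 0.365), the kinase JNK1, Mapk8 (log2 fold change -0.35, SE 0.13, adjusted p = 0.367), and Map3k6 (0.83), whose call was lost without HFD-50% mouse 4 or HFD-C mouse 1 (log2 fold changes between 0.54 and 0.70). Heat shock proteins and co-chaperones had 5 of 49 lower and none higher by edgeR (background 4.89% and 5.8%). Hspa1b, inducible HSP70, whose reads a nearly identical copy could share, was at 1.94, 3.04 and 3.84 CPM against 3.27, 4.97 and 8.17 CPM (log2 fold change -0.84, SE 0.27, adjusted p = 0.27). The HSP40 protein Dnaja1 and the small heat shock proteins Hspb8 and Hspb3 had log2 fold changes of -0.35 (SE 0.11), -0.43 (SE 0.15) and -0.59 (SE 0.22), and that of Hspb3 lost its call without HFD-C mouse 6 (log2 fold change -0.43).

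Calcium handling and signalling genes were called lower more often than all genes. Of 62 genes of calcium handling and excitation-contraction coupling 11 fell and 1 rose (background 4.89% and 5.8%), with a median log2 fold change of -0.18 and -0.13 without mouse 4. Nfatc2 (chr2:168318330-168443900), a calcineurin-dependent transcription factor, was at 8.10, 10.96 and 14.3 CPM in the HFD-50% and 16.7, 20.1 and 31.4 CPM in the HFD-C, without overlap (log2 fold change -0.98, SE 0.18, adjusted p = 0.108). Calm2 (chr17:87740829-87754363), one of the genes for calmodulin, was at 64.3, 94.7 and 104 CPM against 128, 144 and 192 CPM, also without overlap (log2 fold change -0.77, SE 0.15, adjusted p = 0.108). Asph, which encodes the junctional proteins junctin and junctate, was at 164, 226 and 235 against 231, 278 and 386 CPM (log2 fold change -0.47, SE 0.15, adjusted p = 0.285), and Slc8a3, a sodium-calcium exchanger, at 26.6, 41.6 and 50.3 against 30.6, 63.8 and 72.5 CPM (log2 fold change -0.61, SE 0.21, adjusted p = 0.293). The calcineurin subunit Ppp3r1, named after its values were seen, had a log2 fold change of -0.38, and its call was lost without HFD-50% mouse 5 or 6 or HFD-C mouse 3 (log2 fold changes between -0.34 and -0.32). Pvalb, the calcium buffer of fast fibres, had medians of 8504 CPM in runners and 12965 CPM in controls (log2 fold change -0.54), and its call was lost without HFD-50% mouse 1, 2, 4, 5 or 6 or HFD-C mouse 3, 5 or 6 (log2 fold changes between -0.55 and -0.40). Cacna2d4, an auxiliary calcium channel subunit outside this list, was at 1.29, 2.74 and 4.64 CPM against 5.70, 8.38 and 11.6 CPM (log2 fold change -1.50, SE 0.29, adjusted p = 0.108).

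Of 61 sarcomere and costamere genes 5 fell and 1 rose, beside 4.89% and 5.8% of all genes. Lmod3, which nucleates thin filaments, was at 41.4, 69.5 and 91.5 CPM against 70.6, 108 and 120.1 CPM (log2 fold change -0.53, SE 0.19, adjusted p = 0.332), and Myoz3, a Z-disc protein of fast fibres, at 41.7, 119 and 190.5 against 141, 217 and 245 CPM (log2 fold change -0.72, SE 0.27, adjusted p = 0.366). Slow fibre genes varied widely between mice. Their median log2 fold change was 0.57 and 11 of 13 were positive, but only 1 was called. This was Tpm3, slow tropomyosin, at 62.5, 276 and 604 CPM against 19.1, 105 and 325 CPM (log2 fold change 1.37, SE 0.60, adjusted p = 0.43), whose call was lost without HFD-50% mouse 3, 5 or 6 or HFD-C mouse 2, 3, 4 or 5 (log2 fold changes between 1.11 and 1.42). Slow myosin Myh7, named after its values were seen, was at 78.7, 261 and 748 CPM in HFD-50% and 0.311, 108 and 522 CPM in HFD-C (adjusted p = 0.759). Among 16 fast 2B genes 2 fell, Pvalb and Myoz3, and none rose. The abundant actin Acta1 was not called (log2 fold change -0.26, adjusted p = 0.698).

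Collagens fell more often than the background. Of 30 collagen chains 6 fell and none rose by edgeR (background 4.89% and 5.8%, none at DESeq2's adjusted p), with a median log2 fold change of -0.24. Col15a1, of the basement membrane zone, was at 7.36, 10.6 and 17.8 CPM against 13.1, 17.7 and 33.6 CPM (log2 fold change -0.86, SE 0.24, adjusted p = 0.2). Col5a1, which regulates fibril diameter, and Col6a3, of beaded microfibrils, had log2 fold changes of -0.86 (SE 0.26) and -0.78 (SE 0.27). The main fibrillar collagens were lowest in mouse 4, with Col1a1 at 2.24 CPM there against 25.2 CPM in the median HFD-50% mouse and 27.5 to 74.8 CPM in HFD-C, and Col3a1 at 5.77 CPM against 63.2 CPM and 61.7 to 142 CPM. Without that mouse the log2 fold changes were -0.75 (called) and -0.61 (called). With it they were -0.99 (called, adjusted p = 0.407) and -0.85 (not called, adjusted p = 0.477). The call of Col1a1 was lost without HFD-50% mouse 5 or HFD-C mouse 1 (log2 fold changes between -0.93 and -0.78).

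Among matrix proteins and remodelling enzymes 5 of 41 fell and 2 rose (background 4.89% and 5.8%). Loxl1, an elastin cross-linking oxidase, separated the groups at 4.42, 6.98 and 9.996 CPM against 11.02, 12.9 and 21.1 CPM (log2 fold change -1.14, SE 0.22, adjusted p = 0.108), and Adamts2, which trims procollagen, was at 4.53, 5.21 and 6.87 against 5.36, 8.63 and 10.4 CPM (log2 fold change -0.66, SE 0.18, adjusted p = 0.194). Tgfb2 (chr1:186354984-186441504), a cytokine that induces matrix, was at 4.89, 8.82 and 10.4 against 11.8, 16.6 and 23.4 CPM and did not overlap (log2 fold change -1.03, SE 0.20, adjusted p = 0.108). Markers of fibroblasts and tendon had 3 of 8 lower and a median of -0.81. Among them Col1a1, Col3a1, Dcn, Fmod and Thbs4 are also members of the collagen or matrix list. Of the markers that fell, only Scx is outside those lists. The summed level of these markers was 221 to 542 CPM in HFD-50% and 348 to 642 CPM in HFD-C. Of the defining tendon genes, Tnmd was at 0 in 1 HFD-50% mouse, and the part of these cells in the result was not tested. The tendon matrix protein Thbs4 was at 11.1, 31.9 and 45.4 against 22.7, 60.98 and 70.7 CPM (log2 fold change -0.91, SE 0.30, adjusted p = 0.285), whereas the fibroblast proteoglycan Dcn was not called (-0.08, adjusted p = 0.923). In the low-share libraries the collagen calls shrank to 2 lower and 1 higher, and those of matrix genes to 1 lower and 2 higher, and Col15a1 was at a log2 fold change of -0.34 (not called) there.

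Energy metabolism outside fat showed few calls. Nuclear genes of the respiratory chain had 1 of 77 higher and none lower (background 10.7%), with a median log2 fold change of 0.08. This gene was Cox6a1, of cytochrome oxidase (log2 fold change 0.36, SE 0.16, adjusted p = 0.458), whose call was lost without HFD-50% mouse 3, 5 or 6 or HFD-C mouse 1, 2, 3, 4 or 5 (log2 fold changes between 0.26 and 0.36). Of the 13 protein genes of mitochondrial DNA none rose and 1 fell, mt-Nd4l (log2 fold change -1.24, and 0.72 in the low-share libraries), and its call was lost without HFD-50% mouse 1, 2, 3 or 4 or HFD-C mouse 1, 2 or 3 (log2 fold changes between -1.29 and -0.78). PGC-1 and other mitochondrial regulators had 2 of 31 lower and none higher. Ppargc1b, the coactivator PGC-1 beta, was at 2.24, 5.92 and 8.08 CPM against 3.90, 10.5 and 28.8 CPM (log2 fold change -1.27, SE 0.42, adjusted p = 0.282), and at a log2 fold change of -0.23 (not called) in the low-share libraries. Prkag3, an AMPK subunit of fast muscle, was at a log2 fold change of -0.69 (SE 0.27) and lost its call without HFD-C mouse 3 or 5 (log2 fold changes between -0.54 and -0.53). In glycolysis and glycogen metabolism 3 of 44 rose and 1 fell. Pfkfb1, which sets fructose 2,6-bisphosphate, was at 68.9, 98.5 and 113 CPM against 55.7, 66.97 and 90.8 CPM (log2 fold change 0.46, SE 0.15, adjusted p = 0.275). The pyruvate dehydrogenase phosphatases went opposite ways, Pdp2 at 0.96 (SE 0.37) and Pdp1 at -0.43 (SE 0.17), with calls lost without HFD-50% mouse 5 (log2 fold change 0.82) and without HFD-50% mouse 2 or HFD-C mouse 3 (log2 fold changes between -0.39 and -0.36).

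Some insulin and cytokine signalling genes were called, beside 10.7% of all genes (5.8% higher and 4.89% lower). By list the share called was 13.95% for insulin and PI3K signalling, 25% for JAK-STAT signalling, 18.52% for interferon-stimulated genes and 13.89% for antioxidant genes. In insulin and PI3K signalling 4 of 43 rose and 2 fell. The catalytic subunit Pik3cd was at 5.86, 8.41 and 13.5 CPM against 8.98, 18.6 and 22.1 CPM (log2 fold change -0.96, SE 0.23, adjusted p = 0.139), opposite in direction to Pik3r1, and Tbc1d4, which releases GLUT4 vesicles when phosphorylated, was at 47.5, 63.1 and 81.5 against 29.97, 44.8 and 49.6 CPM (log2 fold change 0.54, SE 0.16, adjusted p = 0.224). In JAK-STAT signalling 8 of 40 rose and 2 fell. Beside Socs2 they included the STAT5 feedback gene Cish, at 25.6, 38.9 and 65.03 against 5.54, 19.2 and 41.1 CPM (log2 fold change 1.12, SE 0.38, adjusted p = 0.289), and the receptor chains Il15ra (log2 fold change 0.45, SE 0.15, adjusted p = 0.285) and Il4ra (log2 fold change 0.55, SE 0.18, adjusted p = 0.285). Interferon-stimulated genes had 4 of 27 higher and 1 lower (median 0.35) at low levels. Oasl2 was at 1.89, 2.62 and 4.48 CPM against 1.09, 1.22 and 2.19 CPM (log2 fold change 1.04, SE 0.29, adjusted p = 0.198), and Ifit3b, with every runner below every control and a near copy that could share its reads, at 2.002, 2.79 and 3.31 against 3.33, 4.31 and 5.997 CPM (log2 fold change -0.66, SE 0.21, adjusted p = 0.278). The calls of Ifit1 (0.86) and Oas2 (0.78) were lost without HFD-50% mouse 3 or 6 or HFD-C mouse 1 or 3 (log2 fold changes between 0.59 and 0.79) and without HFD-50% mouse 3, 4 or 5 or HFD-C mouse 2, 4 or 5 (log2 fold changes between 0.63 and 0.76). Antioxidant and NRF2 genes had 4 of 36 higher and 1 lower, but none higher and 2 lower without mouse 4. Nqo1, a quinone reductase, fell without overlap, at 21.2, 25.1 and 27.04 against 30.7, 31.6 and 33.2 CPM (log2 fold change -0.36, SE 0.10, adjusted p = 0.192), while heme oxygenase Hmox1 was at 43.7 CPM in mouse 4 and had a log2 fold change of 1.39 with it and 0.69 (not called) without it.

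Of the remaining lists, polyamine metabolism had 1 of 16 lower, the antizyme inhibitor Azin1 (log2 fold change -0.52, SE 0.16, adjusted p = 0.235). The share called was 6.25% there, 16.67% for myokines and 6.06% for myogenic genes, beside 10.7% of all genes. Myokines and secreted factors had 2 of 18 higher, Angptl4 and Fibin, and 1 lower, Angptl2, an inflammatory angiopoietin-like protein, at 6.53, 13.7 and 25.04 CPM against 25.1, 30.99 and 34.96 CPM without overlap (log2 fold change -1.02, SE 0.24, adjusted p = 0.134). Myogenic factors and neuromuscular junction genes had 1 higher and 1 lower of 33. The sodium channel Scn4a was the lower one (log2 fold change -0.34, SE 0.16, adjusted p = 0.464), and its call was lost without HFD-50% mouse 3, 4, 5 or 6 or HFD-C mouse 1, 2, 3 or 6 (log2 fold changes between -0.36 and -0.28). Markers of other cells were not called in blood (0 of 5, Hbb-bs 0.11 and Hba-a1 0.17), Schwann cells (0 of 5, Pmp22 -0.16), immune cells (0 of 10, Lyz2 0.18 and C1qa 0.05) and satellite cells (0 of 5, Sdc4 0.07 and Cdh15 0.15), all values being log2 fold changes by edgeR, with none at DESeq2's adjusted p either.

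The genes with the smallest p among those that fell were mostly separate from these lists. Tceal7 (chrX:135124790-135126849), a transcription elongation factor-like protein of myogenic cells, had the smallest p of all genes. It was at 6.21, 11.4 and 14.2 CPM in the HFD-50% and 16.8, 24.8 and 31.9 CPM in the HFD-C, and every runner was below every control (log2 fold change -1.16, SE 0.20, adjusted p = 0.108, DESeq2 adjusted p = 0.000703). St8sia5, a sialyltransferase of gangliosides, was at 12.1, 18.8 and 24.1 CPM against 24.4, 35.7 and 37.4 CPM (log2 fold change -0.87, SE 0.16, adjusted p = 0.108), and Slc41a3, a magnesium transporter, at 16.9, 38.1 and 46.1 against 48.1, 70.8 and 88.9 CPM (log2 fold change -0.98, SE 0.21, adjusted p = 0.111). Neither overlapped. Rnf150, a RING-finger protein, had a log2 fold change of -0.85 (SE 0.17) and of -0.47 (not called) in the low-share libraries, and the unnamed transcript Gm29773 one of -0.92 (SE 0.18). Among genes without overlap the largest falls beside Cacna2d4 and Tceal7 were in Gm32796, Dact2, a Wnt inhibitor, and the mitotic kinase Aurka, with medians of 0.719, 0.819 and 2.24 CPM in runners and 2.20, 2.47 and 5.11 CPM in controls. The largest rises were in Doc2b, a calcium sensor of vesicle fusion that acts on GLUT4 transport, at 4.17, 5.93 and 32.7 CPM against 0.0683, 1.12 and 3.23 CPM, and Arhgap26, a GTPase-activating protein, at 12.4, 18.1 and 142 against 2.59, 6.30 and 10.7 CPM. Both were highest in mouse 4, and their log2 fold changes of 2.90 and 2.60 were 2.04 and 1.51 without it.

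Against the other running groups, the number of genes called in a direct test with the HFD-50% was smallest for the HFD-25% and largest for the HFD-U. In direct tests that do not use the HFD-C, 323 of 12020 genes were called against the HFD-25% at the unadjusted threshold (2.69%), 639 of 11896 against the HFD-75% (5.37%) and 1472 of 11851 against the HFD-U (12.4%). Of the last, 839 were higher in the HFD-50% (7.08%) and 633 lower (5.34%). The first count was 203 without HFD-50% mouse 4 and 526 without HFD-50% mouse 1, and the second 378 without HFD-75% mouse 2 and 1158 without HFD-50% mouse 1. The 3 counts were not tested against each other. Against HFD-25% and HFD-75% no gene passed adjustment by edgeR (smallest adjusted p 0.9998 and 0.838) or by DESeq2. A threshold of 0.05 passes genes at that rate without any difference. The HFD-25% share lies below that rate and the HFD-75% share near it. Angptl4 was the 1 gene past the adjusted threshold against the HFD-U (edgeR adjusted p = 0.0106, log2 fold change 2.22, SE 0.28). No gene passed without HFD-U mouse 1, 2 or 6, where the smallest edgeR adjusted p was 0.0585, 0.0507 and 0.0576. DESeq2 put 102 genes past its adjusted threshold in the same comparison. The mean of Angptl4 over 6 mice was 24.3 ± 12.6 CPM (SD) at the 50% distance, against 14.8 ± 6.22 CPM at 75%, 11.6 ± 6.74 CPM at 25%, 5.20 ± 0.758 CPM in unrestricted and 7.10 ± 4.45 CPM in sedentary mice. It was also higher at the unadjusted threshold than in HFD-25% (1.07) and HFD-75% (0.70).

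Clock repressors, immediate early genes and a MAPK phosphatase were among the genes called in HFD-50% against HFD-U, beside 12.4% of all genes. Mean Nr1d1 was 24.8 ± 8.46 CPM (SD) in HFD-50%, 73.3 ± 30.01 CPM in HFD-U and 45.2 ± 15.4 CPM in HFD-C. The direct difference from HFD-U had a log2 fold change of -1.56 (edgeR adjusted p = 0.0731). For Bhlhe40, Klf10, Zfp36l1 and Dusp10 it was -1.17, 1.41, 0.91 and -1.15, each with an edgeR adjusted p of 0.0731. Fkbp5 and Foxo1 were higher in HFD-50% than in HFD-U by 0.90 and 0.94 on the log2 scale, and Pik3r1 by 0.72. All 3 passed the unadjusted threshold and none the adjusted one (adjusted p = 0.231, adjusted p = 0.296 and adjusted p = 0.305 by edgeR). Map3k15 passed the unadjusted threshold against HFD-75% (log2 fold change 0.80, SE 0.33) but neither against HFD-25% nor against HFD-U. It was at 4.85 ± 0.567 CPM in HFD-25% and 2.83 ± 0.860 CPM in HFD-U against 4.18 ± 2.22 CPM in HFD-50%, with direct log2 fold changes of -0.21 and 0.56. Against the HFD-C, Tceal7 was also lower at the unadjusted threshold in the HFD-25% (log2 fold change -0.89), the HFD-75% (-0.77) and the HFD-U (-0.83). Calm2 was lower by the same criterion, with values of -0.55, -0.61 and -0.39. These comparisons and that of HFD-50% with HFD-C all share the 6 HFD-C mice.

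**Figure D4:**
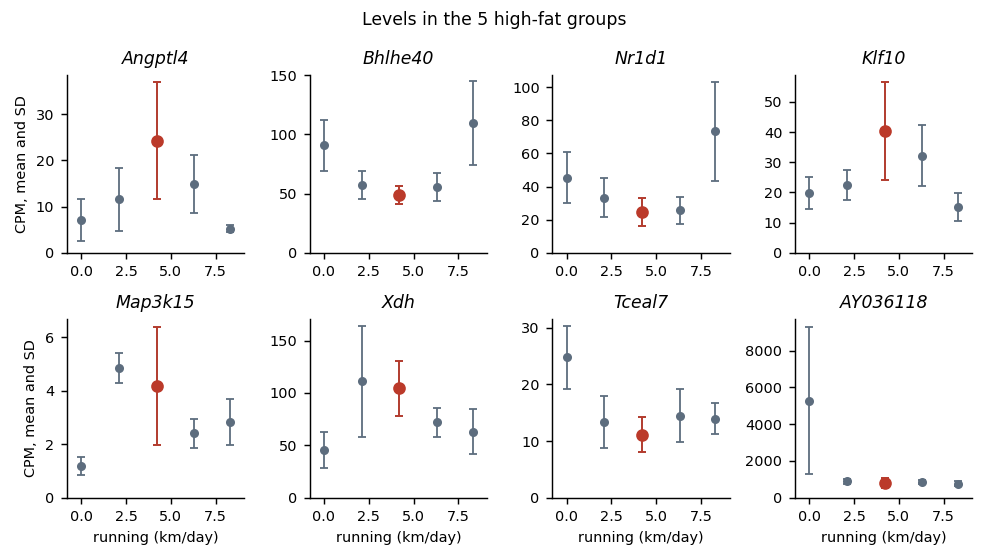
Mean CPM and SD (6 mice each) of 8 genes against the daily running distance of the 5 high-fat groups, HFD-C at 0 km/day and HFD-50% in red. Angptl4 and Klf10 are highest and Bhlhe40 and Nr1d1 lowest at 4.2 km/day, and AY036118 is high at 0 km/day only.

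Of 5 rRNA-linked features tested, 3 fell (median log2 fold change -2.70), among them AY036118 and Lars2. AY036118, a transcript grouped here with ribosomal RNA, was at 398, 796 and 1134 CPM in HFD-50% and 606, 5705 and 9789 CPM in HFD-C, and its lowest HFD-C value lay within the HFD-50% range. Lars2, the mitochondrial leucyl-tRNA synthetase gene, ranged over 48.5, 101 and 156 CPM against 71.2, 791 and 1458 CPM. Their log2 fold changes of -2.70 and -2.81 over all mice were 0.38 and 0.48 in the low-share libraries. In those 8 libraries 1122 genes were called, and 37 and 31.2% of the genes that rose and fell over all 12 mice were called again in the same direction. Xdh, Phyhd1, Slc7a2, Socs2, Plin4, Bhlhe40, Nr4a1, Calm2, Tceal7 and Cacna2d4 were among them, while Glul (0.61, not called), Col5a1 (-0.25, not called) and Nfil3 (0.62, not called) were not. By list, the low-share libraries gave 9 higher and 1 lower for glucocorticoid-induced genes, 10 higher and 0 lower for fatty acid uptake and oxidation, and 10 higher and 0 lower for endothelial genes. They gave 1 higher and 10 lower for calcium handling and 0 higher and 4 lower for the clock. Other lists lost members, FOXO targets going from 10 higher and 2 lower to 5 and 0, JAK-STAT signalling from 8 higher and 2 lower to 4 and 0 and antioxidant genes from 4 higher and 1 lower to 0 and 1. Interferon-stimulated genes went from 4 higher and 1 lower to 1 and 0, and nitrogen metabolism from 4 higher and 0 lower to 2 and 0. Of the 46 lists, 25 had a count of calls that changed by over 1.5 times, or to or from 0. The share and the group cannot be told apart for HFD-C mice 1 to 4, since no running library reached their level.

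**Figure D5:**
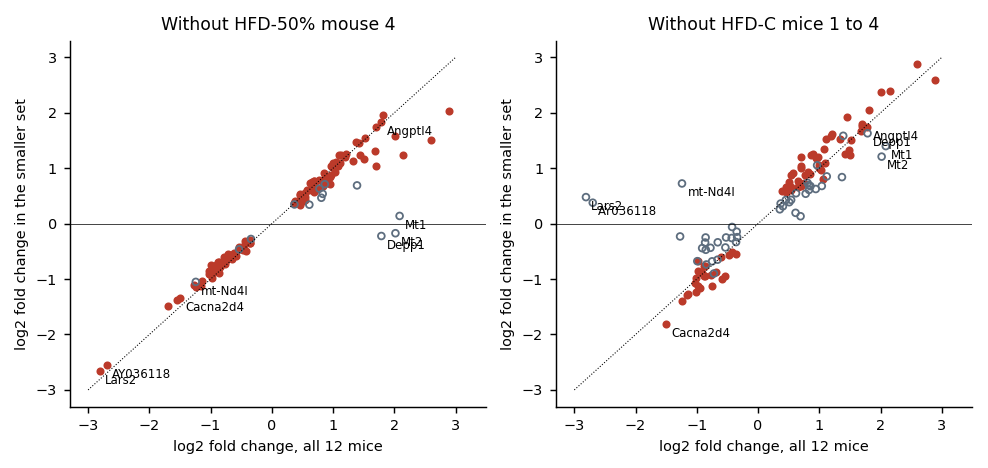
Log2 fold changes of the named genes called over all 12 mice (x axis) against the value without HFD-50% mouse 4 (left) or in the low-share libraries (right). Filled points kept direction and an unadjusted p of at most 0.05 (105 of 118 on the left, 72 of 117 on the right) and the dotted line marks equal values. Mt1, Mt2 and Depp1 drop to near 0 on the left, and Lars2 and AY036118 on the right.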

How the data were processed

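Poly(A) RNA of 36 gastrocnemius samples was sequenced, 12 of which are used in the main comparison. The authors deposited raw read counts per gene for all samples in 1 table of 46893 features. The submitters' processing notes name HISAT2 2.0.5, featureCounts 1.5.0-p3, StringTie 1.3.3b, DESeq2 1.20.0 and edgeR 3.22.5. The labels give mm10 as the build, whereas the chromosome accessions in the table are those of GRCm39, and gene coordinates are printed on GRCm39. Whether counting used strand was not given in the sources used here, so reads of overlapping genes cannot be told apart. The 562 features without a gene name (0.159 to 0.485% of counts) were kept under their gene ID. They were treated like all others, and were tested where they reached the count minimum. In all 12 libraries 20668 features were at 0.

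Groups were taken from the treatment labels. Genes whose counts averaged 25 or more in the 12 libraries (12116) were tested with the quasi-likelihood F-test of edgeR 4.0.16 in R 4.3.3, with TMM scaling and Benjamini-Hochberg adjustment over all genes tested. A gene was called when its unadjusted p did not exceed 0.05, and CPM values use TMM library sizes. The same test compared HFD-50% with HFD-25%, HFD-75% and HFD-U directly. DESeq2 1.42.0, other scaling and filters, the rRNA-linked share as a covariate or term, a replicate block, 1 fit over the 5 high-fat groups and fits without each mouse were alternatives.

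Depth was 14025701 to 27981702 counts per library, and the common biological coefficient of variation was 0.278. Library measures were compared by exact permutation tests (scipy 1.17.1). Mice with the same number were not treated as pairs, because the labels give no shared litter or day and their deviations around each group's mean correlated above 0.1 in 5 of 6 pairs but not in all (-0.143 to 0.422).

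The comparison, the 46 gene lists (1408 of 1416 names found) and the rules were chosen with earlier results of these data known. The genes named are the 12 the study singled out, the 12 with the smallest p in each direction, up to 4 members of each list with the smallest p among those called, the 2 most abundant members of marker lists and of lists without a call, and the 5 largest changes in each direction without overlap between groups. Genes named outside these rules are marked as such, and some genes that the rules name are not reported here. Promoter sequences came from a RefSeq table (GRCm38.p6), in which 96 of the 139 named genes had an entry.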

Additional observations from a re-analysis of the deposited data

Results flagged for a closer look

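In 238 groups of 6 mice over the named genes, 26 had a highest or lowest mouse whose gap to the next was above Dixon's 95% critical value. Chance gives such a gap in about 1 in 20 groups. Of the 26, 15 were HFD-50% mouse 4, 4 were HFD-C mouse 6, and the remaining mice had 1 or 2 each.

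Mouse 4 of HFD-50% was the highest of its group for the metallothioneins Mt1 (663 CPM) and Mt2 (357 CPM), for the FOXO-linked Depp1 (386 CPM) and Sesn1 (202 CPM), and for the zinc importer Slc39a14 (192 CPM). It was also highest for Plin4 (1259 CPM), Arhgap26 (142 CPM), Fibin (73.9 CPM), Map3k6 (66.2 CPM), Bckdhb (52.9 CPM), Doc2b (32.7 CPM), Cyren (13.01 CPM) and Lpin2 (11.5 CPM). It was the lowest for the magnesium transporter Slc41a3 (16.9 CPM) and the clock repressor Bhlhe41 (10.8 CPM).

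Other mice stood apart in fewer genes. In HFD-50%, mouse 1 was apart for Pld1 (7.61 CPM) and Dnaja1 (32.4 CPM) and mouse 3 for Zfp36l1 (26.8 CPM). In HFD-C, mouse 4 was apart for Car4 (12.0 CPM) and Slc8a3 (30.6 CPM), mouse 5 for Mt2 (43.5 CPM) and Oasl2 (2.19 CPM), and mouse 6 for Dusp1 (204 CPM), Gadd45a (22.1 CPM), Thbs4 (22.7 CPM) and Cox6a1 (23.8 CPM).

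Angptl4 differed between the running distances in a direct test. It was higher in the HFD-50% than in the HFD-U by 2.22 on the log2 scale (edgeR adjusted p = 0.0106). Without HFD-U mouse 1, 2 or 6 no gene passed the adjusted threshold in this comparison.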

How the results depend on the processing

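The count of genes called against HFD-C at the unadjusted threshold (1296) was 2922 with edgeR without a minimum count and 1026 to 1644 when 1 mouse was left out. Without a minimum count the direct comparisons gave 1397 genes for HFD-25%, 1826 for HFD-75% and 2844 for HFD-U. Leaving out 1 mouse gave 203 to 526 for HFD-25% (203 without HFD-50% mouse 4, 526 without HFD-50% mouse 1), 378 to 1158 for HFD-75% (378 without HFD-75% mouse 2, 1158 without HFD-50% mouse 1) and 1010 to 2070 for HFD-U. Genes past the adjusted threshold and changed 2-fold numbered 0 by edgeR, but 80 by DESeq2 on the same genes, 90 by DESeq2 and 39 by edgeR without a minimum count, 51 in 1 fit over the 5 groups, and 0 to 5 without 1 mouse (1 without HFD-50% mouse 1, 5 without HFD-C mouse 4). The replicate block gave 1709 unadjusted calls (849 higher, 860 lower), 50 genes past the adjusted threshold where the fit without it gave 0, and 18 of them changed 2-fold, and 3 of 6 HFD-50% mice correlated best with their own number. Against HFD-U, genes past the adjusted threshold numbered 1 by edgeR, 102 by DESeq2, 26 with the replicate block, 25 by edgeR without a minimum count and 0 to 4 without 1 mouse (0 without HFD-U mouse 1, 2 or 6). The cause of these differences was not tested.

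Of 139 named genes, 2 or fewer changed side of the threshold with other size factors or without rRNA-linked features, and 4 with DESeq2 on the same genes. Of the named genes called over all mice, 77 of 119 were called again in the same direction with the rRNA-linked library set as a term, 72 of 117 in the low-share libraries and 105 of 118 without HFD-50% mouse 4. The sign turned for Lars2 (0.46 with the set term, 0.48 in the low-share libraries), AY036118 (0.36 and 0.38) and mt-Nd4l (0.71 and 0.72, and 0.51 with the share as a covariate), and without HFD-50% mouse 4 for Depp1 (-0.22, and up to 2.01 without another mouse) and Mt2 (-0.17, and up to 2.50). With 2 controls, the low-share fit has fewer samples. Genes below the count minimum were not tested.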
